A study of Mus musculus with 2 samples.

Results

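This account follows 47 cell cycle and DNA replication genes, taken by symbol from the 55536 annotated genes of the tables, in mouse bone marrow-derived macrophages. They were sorted by textbook role into 11 genes of the G1/S engine, 4 CDK inhibitors, 14 genes of S phase and replication and 18 genes of G2 and mitosis. The macrophages came from C57BL/6J mice and form a single group of 2 polyadenylated RNA libraries, replicates 1 and 2. Both had 12 h of a ligand at 100 ng/ml, a 12 h washout and a second exposure of 30 min at the same dose. The free text of the labels calls the ligand Lipid A and the treatment field calls it lipoprotein A; sex and age were not collected. No untreated, once-treated or cycling library was analysed here, so the levels describe restimulated cells only, and nothing is said of induction or repression.

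Macrophages grown from marrow divide while their growth factor is present and can leave the cycle when they are activated. In G1, D-type cyclins with Cdk4 or Cdk6 phosphorylate the retinoblastoma protein and free E2F factors, which switch on cyclin E and the replication genes. CDK inhibitors hold these kinases back, the MCM helicase opens DNA in S phase, and cyclin B with Cdk1 drives entry into mitosis. Messages of the G2 and mitosis genes are known to peak late in the cycle and to be low in cells at rest.

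The gene tables held 41938439 estimated counts in replicate 1 and 30780685 in replicate 2. Levels are given in TPM, the length-corrected share of all transcripts, and so can be compared between genes. The libraries were compared by the log2 ratio of scaled counts, replicate 2 over replicate 1, with a 95% counting interval. The interval covers counting error alone. It treats every read as independent, and sequencing reads are not independent molecules, so it can be too narrow. With 1 library on each side, no p-value exists. Among 12471 genes with at least 20 counts in each library the ratio had a median of -0.02, and the central 95% ran from -0.63 to 0.90. The labels name separate biosamples and the same donor record, and do not say whether the replicates came from separate animals, so the spread may be technical.

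All 12 macrophage markers were detected, Lyz2 being the highest at 8427 and 11649 TPM and Cd68 standing at 3363 and 2538 TPM. Of the 12, 11 were lower in replicate 2, against 53.5% of the 12471 genes, and Lyz2 was the exception at 0.50. All 11 had an interval below 0, against 31.2% of the 12471 genes. The median ratio of the 12 markers was -0.25, against -0.19 for the 47 cell cycle genes. Of 14 neutrophil precursor markers 5 were detected, and the list summed to 192 TPM in replicate 1 against 87.9 TPM in replicate 2. Lcn2, at 100.5 and 64.0 TPM, made up the largest part of both sums. S100a9 was at 40.1 and 5.28 TPM, S100a8 at 22.25 and 3.66 TPM and Ngp at 10.2 and 0.40 TPM. Chil3 moved little, at 8.50 and 8.05 TPM with a ratio of -0.04 (-0.30 to 0.22). Cebpe was at 0.22 and 0.29 TPM and Ly6g at 0 in both. All 4 neutrophil precursor markers with at least 20 counts in each library were lower in replicate 2, 3 with an interval below 0. Markers of red cells (0 of 6 detected, summed level 2.34 and 0.63 TPM) and of T and NK cells (0 of 6, 0.43 and 0.06 TPM) were near 0. B lineage markers (1 of 7, summed level 8.59 and 4.54 TPM) and progenitor and mast cell markers (1 of 7, 3.07 and 4.88 TPM) were low. All 7 stromal markers were detected, with Col1a1 at 214 and 243 TPM and a summed level of 590.15 and 672 TPM. Each of the 7 was higher in replicate 2, with a median ratio of 0.28. Of the 7, 6 had an interval above 0, against 23.3% of the 12471 genes. These differences between the libraries run beside those of the cell cycle genes below, and their part in them was not tested.

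Most members were detected, at lower levels among the mitotic genes than in the G1/S engine. With detection set at 1 TPM in both libraries, 45 of the 47 members passed, against 48.7% of the 22028 protein-coding genes. E2f2 (0.91 and 1.17 TPM) and Cenpf (0.30 and 0.60 TPM) did not. The median level of the G1/S engine was 18.16 and 15.65 TPM in replicates 1 and 2, close to the 17.47 and 16.38 TPM of all detected protein-coding genes. The S phase genes had medians of 16.3 and 11.8 TPM. The G2 and mitosis genes had medians of 3.51 and 2.59 TPM, and only 2 of those 18 were at 10 TPM or more in both libraries, against 8 of 11 in the G1/S engine and 9 of 14 in S phase. In bulk RNA, few cells in mitosis and little message per cell cannot be told apart.

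**Figure D1:**
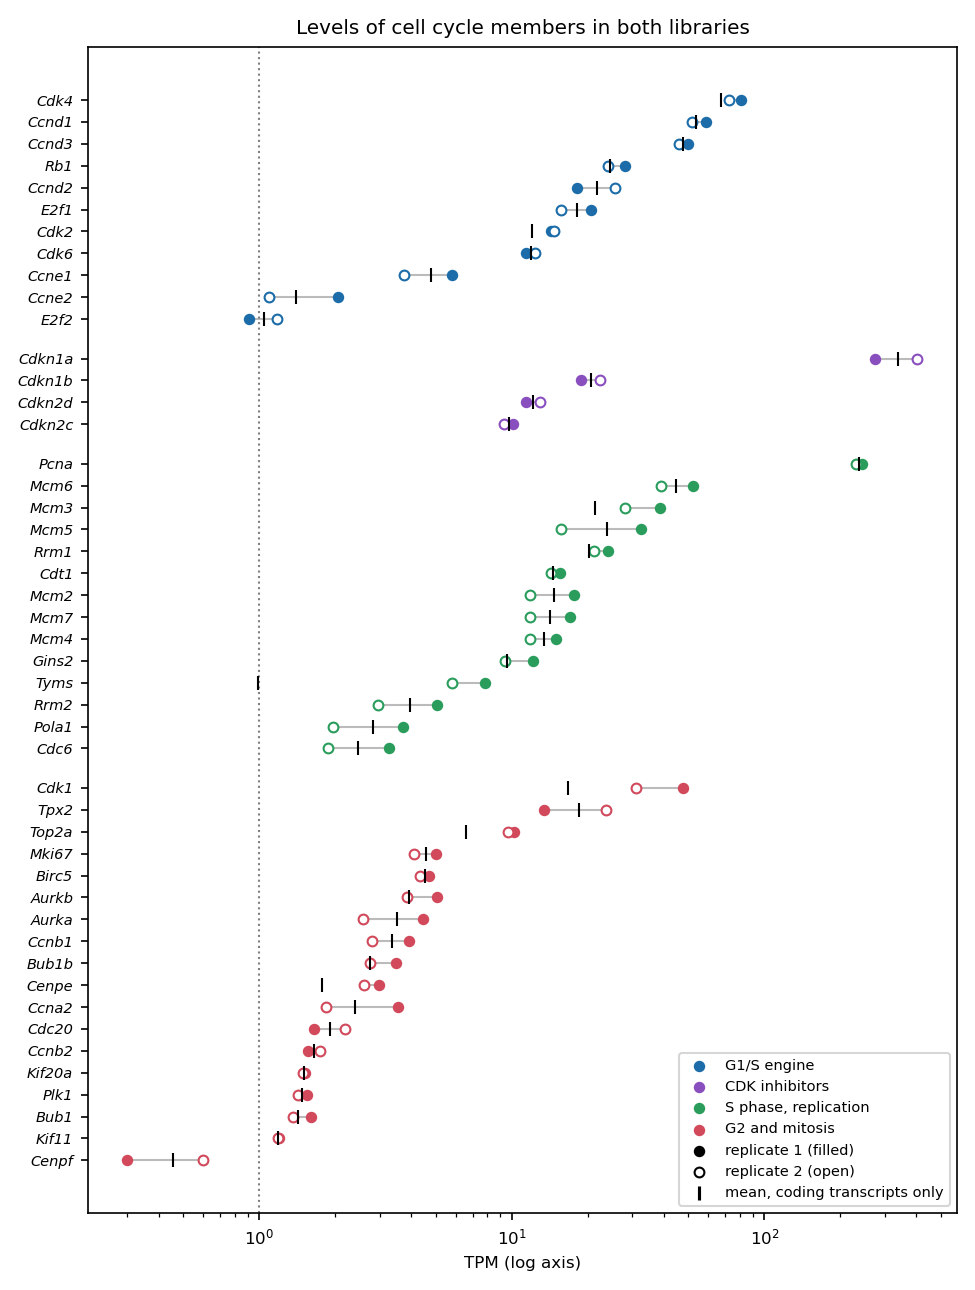
Level of each of the 47 members in TPM on a log axis, by role; filled points are replicate 1, open points replicate 2, black ticks the mean over protein-coding transcripts alone, and the dotted line marks 1 TPM. Cdkn1a and Pcna stand above 200 TPM in both libraries, while most G2 and mitosis genes lie between 1 and 5 TPM.

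Ordered by mean level, the members began with Cdkn1a at 339 ± 92.6 TPM (SD, n = 2), followed by Pcna at 237 ± 8.55, Cdk4 at 76.7 ± 6.33, Ccnd1 at 55.0 ± 4.89 and Ccnd3 at 48.0 ± 2.81. Each of these steps was larger than the larger of the 2 SDs. Below Ccnd3 the order was loose. Over the whole series of 46 neighbouring pairs only 8 gaps exceeded the larger SD, and 18 pairs kept their order in both libraries. Mcm6, Cdk1, Mcm3, Rb1 and Mcm5, for example, did not differ from their neighbours beyond that spread. Of these, Mcm6, Cdk1, Mcm3 and Rb1 still kept that order in both libraries, while Rb1 and Mcm5 did not.

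The D cyclins and Cdk4 carried the G1/S engine. Ccnd1 (chr7:144929931-144939925 in mm10, minus strand) stood at 58.5 TPM in replicate 1 and 51.6 TPM in replicate 2, and Ccnd3 at 50.02 and 46.1 TPM. Ccnd2 stood lower, at 18.2 and 25.5 TPM. The D cyclins are the growth-factor sensors of G1, and Ccnd1 gave 46.2% and 41.9% of their summed TPM, Ccnd3 39.5% and 37.4%, and Ccnd2 14.3% and 20.7%. Their counts parted between the libraries: the log2 ratio was 0.52 for Ccnd2 (interval 0.44 to 0.59), -0.14 for Ccnd1 (-0.20 to -0.08) and -0.15 for Ccnd3 (-0.25 to -0.06).

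Of their kinase partners, Cdk4 (chr10:127063534-127067920, plus strand) was at 81.1 and 72.2 TPM and Cdk6 at 11.4 and 12.3 TPM, so Cdk4 held 87.7% and 85.4% of the pair. Cdk4 had a ratio of -0.15 and Cdk6 of 0.25, with intervals clear of 0 on opposite sides. Rb1, the pocket protein these kinases phosphorylate, was at 28.0 and 24.0 TPM with a ratio of -0.14. E2f1, an activating E2F factor, was at 20.6 and 15.7 TPM, with a ratio of -0.34 (-0.46 to -0.21). E2f2, a related activator, was near the detection line and had a ratio of 0.42 (0.02 to 0.81).

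Cyclin E, the partner of Cdk2 at the start of S phase, was scarce. Ccne1 was at 5.78 and 3.75 TPM and Ccne2 at 2.04 and 1.09 TPM. Cdk2 itself was at 14.3 and 14.7 TPM, with a ratio of 0.04 (-0.12 to 0.19). Both E cyclins were lower in replicate 2, by -0.57 (-0.88 to -0.28) for Ccne1 and -0.59 (-1.05 to -0.14) for Ccne2 on the log2 scale. Ccnd1 exceeded Ccne1 by 10.1 times in replicate 1 and 13.7 times in replicate 2. Across the G1/S engine 7 of 11 genes were lower in replicate 2, each with an interval below 0, and 3 had an interval above 0. Of all tested genes 53.5% were lower, 31.2% had an interval below 0 and 23.3% had one above, so the 3 genes above 0 are near the background share.

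Cdkn1a was the highest of all members and the one CDK inhibitor far above the rest. It encodes p21, an inhibitor of cyclin-CDK complexes and a target of p53 (chr17:29090976-29100727, plus strand). It stood at 273 TPM in replicate 1 against 404 TPM in replicate 2, from 12321 and 13603 counts. The ratio was 0.60 (0.56 to 0.63), above that of 93.9% of all tested genes. Cdkn1b, which encodes p27, was at 18.7 and 22.3 TPM, Cdkn2c (p18) at 10.1 and 9.31 TPM and Cdkn2d (p19) at 11.4 and 13.0 TPM; the last pair are INK4 proteins that act on Cdk4 and Cdk6. Cdkn1a made up 87.2% and 90.1% of the TPM of these 4 inhibitors, and it exceeded Cdk4 by 3.37 times in replicate 1 and 5.60 times in replicate 2.

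The CDK inhibitors were the only role with a median ratio above 0, at 0.34. Cdkn1b had a ratio of 0.37 (0.24 to 0.50) and Cdkn2d of 0.31 (0.08 to 0.54), so 3 of 4 were higher in replicate 2 with intervals above 0, against 23.3% of all tested genes. Cdkn2c had a ratio of -0.19 (-0.45 to 0.06), an interval that includes 0. Of 4 further inhibitors, Cdkn1c, which encodes p57, was at 27.4 and 41.9 TPM with a ratio of 0.64 (0.51 to 0.77). Cdkn2a was at 3.77 and 2.92 TPM, Cdkn2b at 2.04 and 2.42 TPM and Cdkn3, a phosphatase gene with a CDK inhibitor name, at 1.28 and 1.44 TPM. Among 15 p53 target genes, 9 were higher and 6 lower in replicate 2, and the median ratio was 0.06; 4 intervals lay above 0 and 2 below, against 23.3% and 31.2% of all tested genes, so the share above 0 is near the background. Bax, a death effector, was at 112 and 115 TPM, Ccng1 at 96.0 and 104 TPM, Sesn1 at 77.5 and 62.6 TPM and Perp, the lowest, at 0.98 and 0.76 TPM.

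In S phase and replication every one of the 14 genes was lower in replicate 2, 11 of them with an interval below 0. The median ratio of these genes was -0.43. Over all members, 34 of 47 were lower at any size, where 53.5% of all tested genes were lower. An interval wholly below 0 was found for 25 members, against 31.2% of all tested genes, and one wholly above 0 for 7 members, against 23.3%. No member reached 2-fold: 0 were 2-fold lower, with 0.521% of all genes past that line, and 0 were 2-fold higher, with 1.96% of all genes past it.

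**Figure D2:**
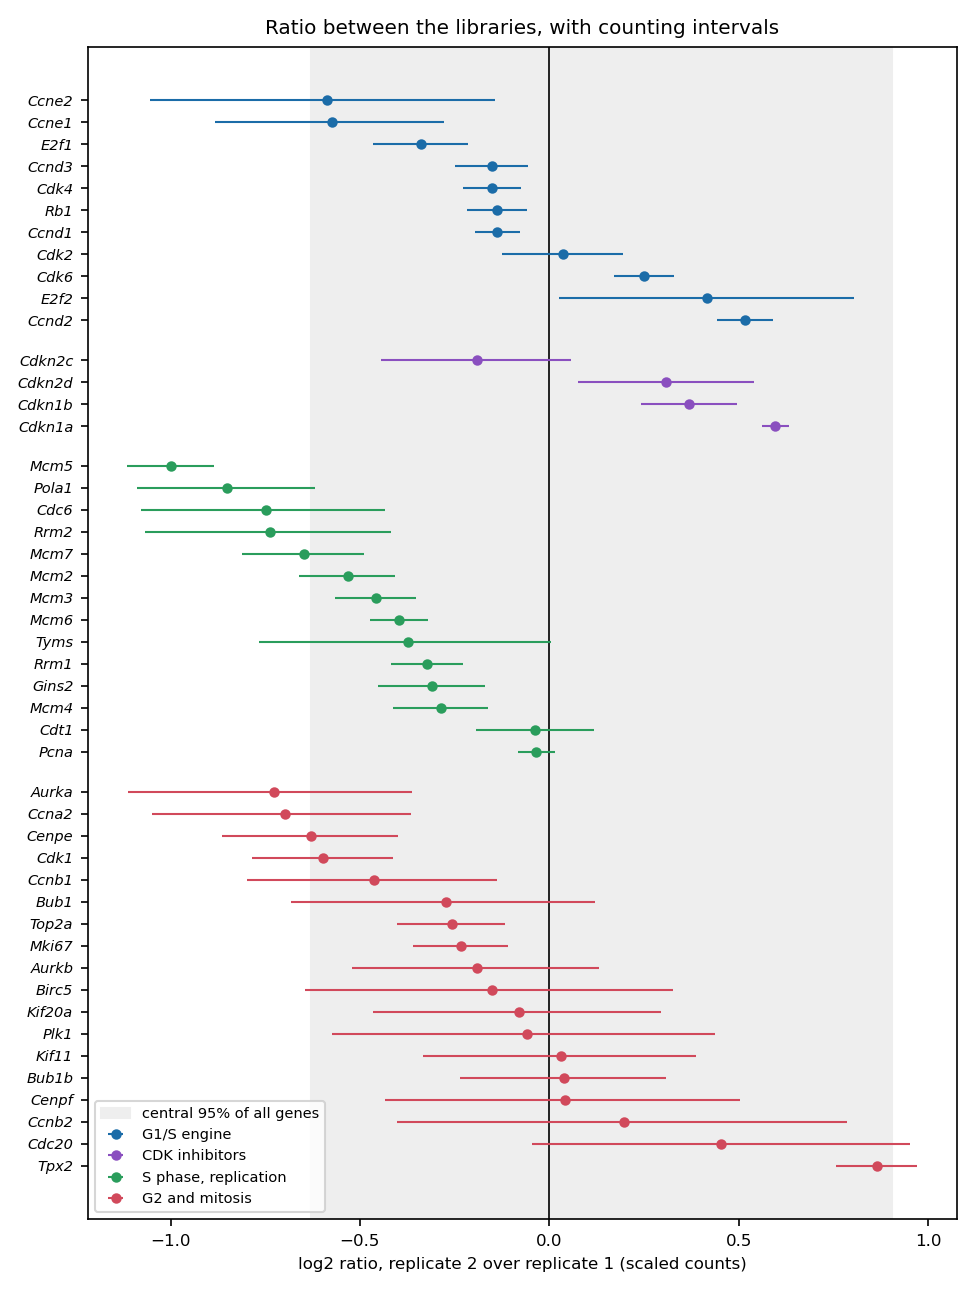
Log2 ratio of scaled counts, replicate 2 over replicate 1, for each member, with 95% counting intervals; the grey band is the central 95% of all tested genes, from -0.63 to 0.90. The S phase points lie to the left of 0, from -0.999 to -0.03, and the CDK inhibitors lie to the right except Cdkn2c.

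The replicative helicase showed the pattern in all its subunits. Mcm5 (chr8:75109569-75128439, plus strand) was at 32.4 TPM in replicate 1 and 15.6 TPM in replicate 2, from 2358 and 861 counts. Its ratio was -0.999 (-1.11 to -0.89), and 0.521% of tested genes were lower still. The other subunits were at 17.7 and 11.8 TPM for Mcm2, 38.7 and 28.1 TPM for Mcm3, and 14.9 and 11.8 TPM for Mcm4. Mcm6 was at 52.1 and 39.0 TPM, and Mcm7 at 17.1 and 11.8 TPM. The hexamer holds its subunits in equal number, yet the highest subunit message exceeded the lowest by 3.49 times in replicate 1 and 3.31 times in replicate 2. Their ratios were -0.53 for Mcm2, -0.46 for Mcm3, -0.29 for Mcm4, -0.40 for Mcm6 and -0.65 for Mcm7, all with intervals below 0.

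The loading factors differed. Cdc6, which brings the helicase to origins, was at 3.26 and 1.87 TPM with a ratio of -0.75 (-1.08 to -0.43). Its partner Cdt1 was at 15.5 and 14.3 TPM with a ratio of -0.04 (-0.19 to 0.12). Gins2, a subunit of the active helicase, was at 12.2 and 9.38 TPM with a ratio of -0.31. Pola1, the catalytic subunit of the priming polymerase, was at 3.69 and 1.96 TPM with a ratio of -0.85 (-1.09 to -0.62).

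Pcna, the sliding clamp that also serves DNA repair (chr2:132249162-132253314, minus strand), stood far above the other replication genes. It was at 243 TPM in replicate 1 and 231 TPM in replicate 2, and its ratio was -0.03 (-0.08 to 0.01). Pcna exceeded Mcm6, the next S phase gene, by 4.66 times in replicate 1 and 5.92 times in replicate 2, and Pola1 by 65.8 and 118 times. Clamp and polymerase messages thus parted between the libraries, since the clamp kept a ratio near 0 and Pola1 did not.

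Among the nucleotide enzymes, the ribonucleotide reductase subunits were unequal. Rrm1, the large subunit, was at 23.9 and 21.2 TPM, and Rrm2, the small subunit whose message is tied to S phase, at 5.05 and 2.94 TPM. Rrm1 had a ratio of -0.32 (-0.42 to -0.23) and Rrm2 of -0.74 (-1.07 to -0.42). Tyms, which makes thymidylate, was at 7.86 and 5.81 TPM with a ratio of -0.37 (-0.77 to 0.01). The enzyme that removes nucleotides was far higher than any of these: Samhd1, a dNTP hydrolase of resting myeloid cells and no member, was at 1077 and 1246 TPM with a ratio of 0.29 (0.28 to 0.31).

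The other replication genes went the same way more often than not. Of 49 further genes 39 were lower in replicate 2, 25 with an interval below 0 and 3 with one above, and the median ratio was -0.19. Among all tested genes 53.5% were lower, 31.2% had an interval below 0 and 23.3% had one above. Lig1, the ligase that joins Okazaki fragments, was at 19.3 and 7.47 TPM with a ratio of -1.17 (-1.35 to -1.001). Tk1, the S phase thymidine kinase, was at 7.29 and 3.67 TPM with a ratio of -1.05 (-1.44 to -0.68), and these were the only genes of that list past 2-fold. Rfc2, a clamp loader subunit, was at 90.03 and 76.4 TPM, Rpa1, which coats single-stranded DNA, at 53.2 and 46.8 TPM, and Orc1, the lowest of the list, at 0.96 and 0.98 TPM. Of 27 further G1/S regulators 13 were lower and 14 higher, with a median ratio of 0.01. The regulators had 7 intervals clear on each side, near the shares of all tested genes. The highest of these were Ccng1, Rbbp4 at 55.7 and 50.7 TPM and Ccnl1, a splicing-linked cyclin, at 27.9 and 58.2 TPM, whose ratio of 1.02 (0.92 to 1.12) was the only one past 2-fold. The lowest was E2f7, a repressing E2F factor, at 0.49 and 0.39 TPM.

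Replication genes are classic targets of E2F factors, so the promoters of the members were searched for E2F words. RefSeq promoters on GRCm38.p6, each running from 250 bases before to 50 after the start, were found for 37 of the 47 members. Aurkb, Ccna2, Ccnd1, Ccnd2, Ccne2, Gins2, Kif20a, Mcm4, Rb1 and Tpx2 are named only. The promoters made up 42 windows, and in 30 of them the bases just after the start matched a transcript of the gene. For Cdc6, Mcm7, E2f1, Cdk6 and Cdkn2c the bases before the start lie inside the annotated gene. The shares of words given here include those windows. The E2F words were TTGGCGC with its variants TTCCCGC plus TTGCCGC plus TTCGCGC, each on both strands. CCAAT words, also on both strands, can overlap an E2F word by a few letters. An E2F word was present in 10 of 13 S phase promoters (76.9%), in 2 of 9 of the G1/S engine, in 1 of 6 of the CDK inhibitors and in 3 of 14 of G2 and mitosis, against 9.57% of all 32851 promoters of that length. The S phase promoters with no E2F word were those of Mcm2, Pcna and Tyms. These counts are of promoters, not genes. The 13 S phase promoters belong to 12 genes, the 9 of the G1/S engine to 7 and the 6 of the CDK inhibitors to 4. Mcm7 has 2 promoters, both with an E2F word. A match describes letters and is not evidence of binding.

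The stretches before the start are shown for Mcm5 and Rrm1, the S phase members with the lowest and the highest ratio among those with an E2F word there. Capitals mark the E2F and CCAAT words, and a word on the other strand appears as its reverse complement. The Mcm5 stretch is chr8:75109259-75109508 on the plus strand, and the Rrm1 stretch is chr7:102441445-102441694 on the plus strand.
Mcm5: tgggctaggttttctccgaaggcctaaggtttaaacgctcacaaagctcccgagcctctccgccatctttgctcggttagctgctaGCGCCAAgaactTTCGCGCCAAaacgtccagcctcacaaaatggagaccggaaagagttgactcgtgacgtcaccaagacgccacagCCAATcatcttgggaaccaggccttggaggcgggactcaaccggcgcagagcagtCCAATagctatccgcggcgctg
Rrm1: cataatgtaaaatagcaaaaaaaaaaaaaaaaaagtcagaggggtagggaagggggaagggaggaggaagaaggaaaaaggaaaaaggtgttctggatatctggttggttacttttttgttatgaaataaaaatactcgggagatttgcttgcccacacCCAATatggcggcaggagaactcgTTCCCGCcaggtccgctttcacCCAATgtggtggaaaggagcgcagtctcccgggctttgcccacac
Mcm5, with a ratio of -0.999, had 3 E2F words starting 164, 152 and 149 bases before the start, the last pair overlapping, and 2 CCAAT words at 77 and 22 bases. Rrm1, with a ratio of -0.32, had 1 E2F word at 67 bases and 2 CCAAT words at 91 and 45 bases.

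The G2 and mitosis genes were low in both libraries, and their differences were mixed. Of the 18 genes 12 were lower in replicate 2, 7 with an interval below 0 and 1 with an interval above, and the median ratio was -0.17. The matching shares of all tested genes were 53.5%, 31.2% and 23.3%, so the 7 below 0 are near the background share. Many rested on few counts: Ccnb2 had 55 and 46, Cdc20 70 and 70, and Plk1 83 and 58.

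**Figure D3:**
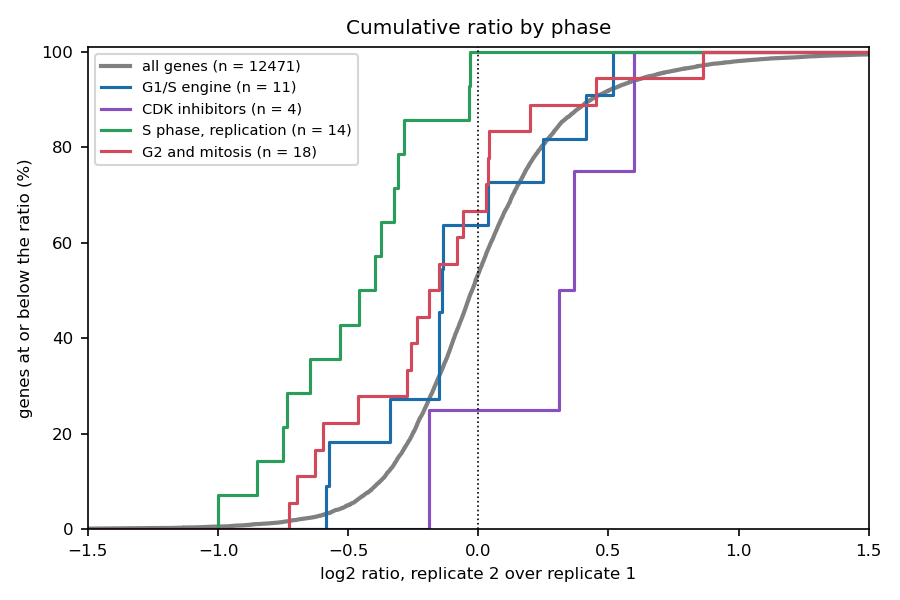
Percent of genes at or below each log2 ratio, replicate 2 over replicate 1, for all 12471 tested genes (grey) and for the members by role. The S phase line reaches 100% left of 0, at -0.03, while the G2 and mitosis line has its median at -0.17 and its highest gene, Tpx2, at 0.86.

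Cdk1, the mitotic kinase (chr10:69335146-69352938, minus strand), had the highest gene-level TPM of the mitotic members, 47.7 in replicate 1 and 30.9 in replicate 2, from 734 and 354 counts. Its cyclin partners were far lower. Ccnb1 was at 3.90 and 2.79 TPM, Ccnb2 at 1.56 and 1.73 TPM and Ccna2, which serves both S phase and G2, at 3.53 and 1.83 TPM. Cdk1 therefore exceeded Ccnb1 by 12.2 and 11.1 times. The ratios were -0.60 for Cdk1 (-0.79 to -0.41), -0.46 for Ccnb1 (-0.80 to -0.14), -0.70 for Ccna2 (-1.05 to -0.36) and 0.20 for Ccnb2 (-0.40 to 0.79).

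Part of that gap lay in which Cdk1 transcript the reads were given to. A 475-base transcript annotated as a retained intron, Cdk1-204, held 57.0% of the Cdk1 TPM in replicate 1 and 55.8% in replicate 2. The coding transcript Cdk1-202 of 1253 bases held 38.3% and 40.8%. In estimated counts the order was turned, with 503 and 259.6 for Cdk1-202 and 161 and 71.5 for Cdk1-204, because TPM divides by length. Over coding transcripts alone Cdk1 exceeded Ccnb1 by 5.26 and 4.59 times. On that scale it was no longer the highest mitotic member: Cdk1 was at 20.5 and 12.8 TPM and Tpx2 at 13.3 and 23.6 TPM, and Tpx2 had the higher mean. The authors' second quantification, made from the reads without the deposited alignment, gave Cdk1-204 50.7% and 45.7%.

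The mitotic kinases were not uniform. Aurka, which matures spindle poles, was at 4.43 and 2.58 TPM with a ratio of -0.73 (-1.11 to -0.36). Aurkb was at 5.03 and 3.85 TPM with a ratio of -0.19 (-0.52 to 0.13), and Birc5, its partner in the chromosomal passenger complex, at 4.68 and 4.34 TPM with a ratio of -0.15. Plk1, which acts through mitosis, was at 1.54 and 1.42 TPM with a ratio of -0.06 (-0.57 to 0.44).

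Tpx2, the spindle factor that activates Aurka, went the opposite way from its kinase (chr2:152847964-152895321, plus strand). It was at 13.4 TPM in replicate 1 and 23.6 TPM in replicate 2, from 1243 and 1653 counts. Its ratio of 0.86 (0.76 to 0.97) was above that of 97.2% of tested genes and was the only one among the G2 and mitosis members with an interval above 0. The coding transcript Tpx2-202 held 85.8% and 88.5% of it. The other 17 genes of the role had a summed level of 100.3 TPM and 75.3 TPM. Cdk1 alone gave 47.7 and 30.9 TPM of these sums, so they say little of the other genes. Of the 17, 12 were lower and 5 higher in replicate 2, where 53.5% of all tested genes were lower.

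The spindle checkpoint genes rested on few counts and had wide intervals. Bub1 was at 1.60 and 1.36 TPM (-0.27, -0.68 to 0.12) and Bub1b, which encodes the checkpoint protein BubR1, at 3.49 and 2.73 TPM (0.04, -0.24 to 0.31). Cdc20, the activator of the anaphase-promoting complex that this checkpoint restrains, was at 1.64 and 2.18 TPM (0.45, -0.05 to 0.95). None of these intervals lay clear of 0.

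Of the kinetochore and spindle motors, Cenpe was at 2.98 and 2.60 TPM, Kif11 at 1.20 and 1.18 TPM and Kif20a at 1.52 and 1.49 TPM. Cenpe moves chromosomes along microtubules, Kif11 separates the spindle poles and Kif20a acts at cytokinesis. Cenpe had a ratio of -0.63 (-0.86 to -0.40). Its TPM includes retained-intron transcripts with 10.4 and 6.6 counts, and its coding transcripts alone were at 2.20 and 1.35 TPM. Kif11 (0.03) and Kif20a (-0.08) had intervals that include 0. Cenpf, a large kinetochore protein, had the lowest level of all members: its TPM was 0.30 and 0.60, but its counts were 92 and 69 and the ratio was 0.04 (-0.43 to 0.50). A transcript of 358 bases, Cenpf-202, with 0 and 0.62 counts, made up 50.8% of its TPM in replicate 2. Such a TPM difference is not one of counts.

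The usual proliferation markers were low but well above detection. Top2a, which untangles DNA, was at 10.2 and 9.63 TPM with a ratio of -0.26 (-0.40 to -0.12). Mki67, which encodes the Ki-67 antigen, was at 5.01 and 4.09 TPM from 1374 and 853 counts, with a ratio of -0.23 (-0.36 to -0.11). Both were lower in replicate 2 by less than the S phase median.

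Among 34 further G2 and mitosis genes, 29 were detected and 23 were lower in replicate 2, against 53.5% of all tested genes. An interval below 0 was found for 12, near the 31.2% of all tested genes, and one above 0 for 3, against 23.3%. The median ratio of the list was -0.23. Pttg1, the securin gene, stood out at 146 and 171 TPM with a ratio of 0.21 (0.12 to 0.31). Incenp, a scaffold of the passenger complex, was at 30.5 and 26.1 TPM and Smc4, a condensin subunit, at 19.6 and 14.7 TPM. Knl1 was the lowest at 0.46 and 0.24 TPM. Mybl2, a transcription factor of late cell cycle genes, was at 1.14 and 0.53 TPM, and its ratio of -1.04 (-1.63 to -0.51) was the only one of that list past 2-fold.

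Late cell cycle genes are known for a promoter element called CHR, often paired with CCAAT boxes, and both words were searched in the same windows. The CHR word TTTGAA, on both strands, was present in 10 of 14 G2 and mitosis promoters (71.4%), against 17.9% of all promoters. CCAAT was present in 13 of 14 (92.9%), against 37.4%, but it was also present in 10 of 13 S phase promoters (76.9%), 4 of 9 of the G1/S engine and 3 of 6 of the CDK inhibitors. All 10 with CHR also held CCAAT, 71.4% against 6.95% of all promoters. CHR was found in 1 of 13 S phase promoters (7.69%), that of Mcm2, in 1 of 9 of the G1/S engine and in 0 of 6 of the CDK inhibitors.

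The stretches before the start are shown for Cdk1 and Cdc20, the G2 and mitosis members with the lowest and the highest ratio among those with CHR and CCAAT there. Bases that the deposited annotation already counts as transcribed are left out, so both printed stretches stop short of the RefSeq start. The positions given below are counted back from that RefSeq start, not from the last printed base. Capitals mark CHR, CCAAT and E2F words. The Cdk1 stretch is chr10:69352939-69353162 on the minus strand, and the Cdc20 stretch is chr4:118437353-118437593 on the minus strand.
Cdk1: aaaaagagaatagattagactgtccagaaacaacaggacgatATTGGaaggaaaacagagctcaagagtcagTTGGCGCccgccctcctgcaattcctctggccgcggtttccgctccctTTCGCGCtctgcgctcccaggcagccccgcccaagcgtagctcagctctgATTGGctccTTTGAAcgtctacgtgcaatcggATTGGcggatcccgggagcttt
Cdc20: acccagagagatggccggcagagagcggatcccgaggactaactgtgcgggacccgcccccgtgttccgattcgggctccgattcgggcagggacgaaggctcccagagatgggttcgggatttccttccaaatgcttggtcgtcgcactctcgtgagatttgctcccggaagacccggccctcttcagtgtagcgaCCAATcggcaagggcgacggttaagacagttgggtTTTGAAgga
Cdk1 held a CHR word starting 71 bases before the start between CCAAT words at 80 and 48 bases, another CCAAT word at 208 bases and E2F words at 178 and 130 bases. Cdc20 held CHR at 18 bases and CCAAT at 53 bases. The genes share these words and had ratios of -0.60 and 0.45, of which the second has an interval that includes 0.

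Transcript classes differed from gene to gene across the 250 annotated transcripts of the members. In 25 members coding transcripts held over 99% of the TPM in both libraries, and in 13 they held under 90% in at least 1. Neither share was computed over all detected genes, so these counts describe the members only. A transcript that is not protein coding led in both libraries in 2 members, Cdk1 and Tyms, against 4.59% of the 10727 detected protein-coding genes. Tyms was led by Tyms-205, a transcript marked for nonsense-mediated decay, with 66.2% and 49.0% of the TPM, and its coding level was 1.47 and 0.51 TPM. In counts the coding Tyms-201 led, with 82.4 and 31.5 against 51.0 and 20.1. On coding transcripts alone Tyms ranked 46 of the 47 members.

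**Figure D4:**
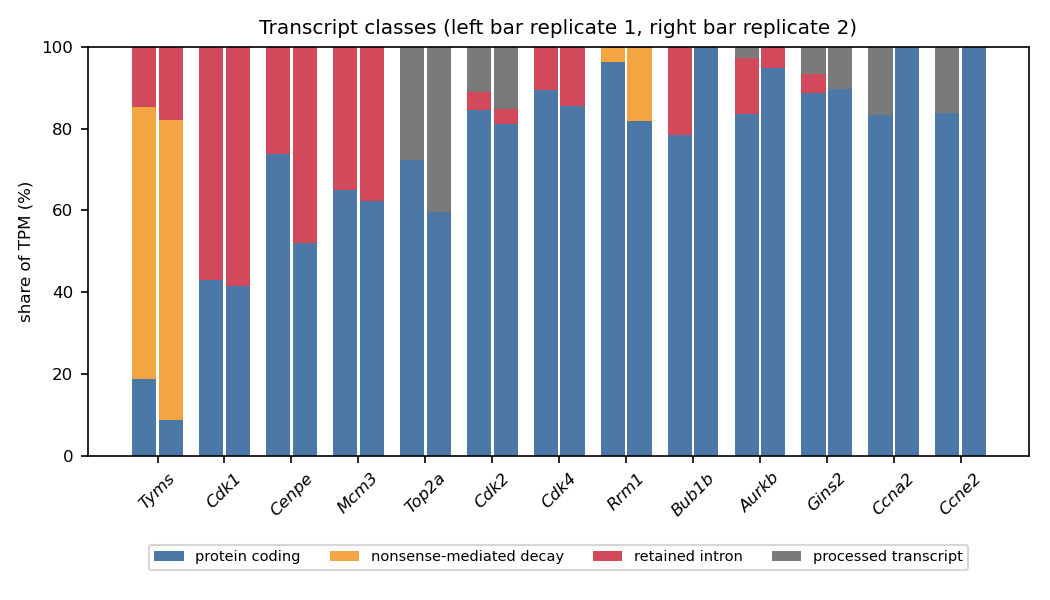
Share of TPM in each annotated transcript class for the 13 members with under 90% coding TPM in a library; left bars are replicate 1, right bars replicate 2. Tyms has 18.7% and 8.79% coding TPM and Cdk1 43.0% and 41.6%, the lowest shares of the members.

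In 2 members the leading transcript differed between the libraries, Cdkn1b and Cenpf, against 7.44% of detected genes. Cdkn1b-201 led in replicate 1 with 50.4% and Cdkn1b-203 in replicate 2 with 47.5%, both coding. The leading transcript held under 60% in a library in 11 members: Cdkn1b, Cenpf, Cdk1, Tyms, Ccne2, Cdk2, Mcm5, Mcm7, Cenpe, Kif20a and Top2a. The same share was not computed over all detected genes, so whether 11 is unusual is not known. Mcm5-203 held 62.0% and 57.5% with Mcm5-201 at 33.9% and 37.3%, both coding and both lower in replicate 2, from 1314 to 443 counts and from 956 to 384 counts. Top2a gave 72.3% and 59.6% to its coding transcript and the rest to processed transcripts.

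The authors' 2 quantifications of each library were close for these genes. After centring on all detected protein-coding genes, 0 members were 1.5-fold or more apart the same way in both libraries, against 1.5% of genes, and Cenpe and Cenpf were apart in 1 library. The leading transcript differed between quantifications for Ccne2, Cenpf and Kif20a. Some transcripts were given very different shares. Retained-intron transcripts of Cenpe held 26.2% and 48.1% in the table made from alignments and 0 in the table made from reads. The retained-intron Mcm3-205 held 35.0% and 37.4% in the table made from alignments and 1.64% and 7.07% in the table made from reads. Mcm3 fell just short of the 1.5-fold line in both libraries, with centred ratios of 0.685 and 0.691, reads over alignments. Its coding transcripts alone were at 25.1 and 17.5 TPM in the quantification made from alignments.

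Some members share sequence with other genes, and no source used here says whether reads were counted by strand. Gins2 shares 66.2% of its 31-base words with Gse1 on the opposite strand, which had 1001 and 642 counts. Cdk4 shares 18.1% with Tspan31 (5552 and 3317 counts), Ccnd1 22.3% with LTO1 (1237 and 922 counts) and Kif20a 26.7% with Cdc23 (1309.9 and 912 counts). Ccne2, with 128 and 62 counts of its own, shares 15.6% with Ints8 (656 and 495 counts). Ccna2, with 234 and 105 counts of its own, shares 11.8% with Exosc9 (973 and 629 counts). For these genes reads from the partner could have been counted in part. Copies of Ccnb1, Pcna and Plk1 elsewhere in the genome had few counts: 1.23 and 0 for Ccnb1-ps, 37.8 and 21.2 for Pcna-ps2, and 11 and 18 for Plk-ps1.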

How the data were processed

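PolyA RNA-seq of 2 libraries of 1 group was analysed. The authors deposited expected counts and TPM per gene and transcript derived from a transcriptome alignment, and a second set of estimated counts and TPM made from the reads of 4 FASTQ files per library, both on mm10 with GENCODE release M21, per the file headers and deposited notes. No source used here names the aligner, counter or strand setting. From these, levels were taken in TPM, with the mean and SD over the 2 libraries. For ratios, expected counts were rounded and scaled by TMM over all genes (edgeR 4.0.16 in R 4.3.3), with a prior count of 0.5. The minimum of 20 counts in each library was applied after scaling, to choose the genes tested. Intervals are exact binomial (Clopper-Pearson) at 95%. Entries that name no gene (26248 numeric entries with 0 counts, and 97 others with 22091 and 20542 counts) were left out. The ratio and interval steps were tested on simulated data. Other steps ran in Python 3.11.15 with pandas 2.3.3, scipy 1.17.1, numpy 2.4.6 and, for figures, matplotlib 3.10.9.

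The members and lists were chosen with earlier results of these data known. All members could be named; of other lists, the 3 highest, the lowest and any gene past 2-fold; of transcripts, members led by a noncoding transcript, with a lead under 60% or with a lead that differs; of promoters, the members with the lowest and highest ratio that hold the role's words before the start. Mcm3 and Tpx2 transcripts, Lcn2, Ngp, Chil3 and Cebpe, Cd68 and the genes that share sequence were picked after their values were seen. Alternatives were DESeq2 1.42.0 size factors, total counts, a TPM ratio with 0.1 added, other minimums and prior counts, and the second quantification.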

Additional observations from a re-analysis of the deposited data

How the results depend on the processing

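The direction of each role's median ratio held under DESeq2 size factors, total counts, the TPM ratio, a minimum of 100 counts, no minimum, a prior count of 5, the quantification made from reads and the coding-transcript TPM ratio, the last chosen after seeing the data. The S phase median ranged from -0.50 to -0.43 and that of the CDK inhibitors from 0.22 to 0.34. The number of members at least 2-fold lower was 1 with total counts, 1 with the TPM ratio and 1 with the quantification made from reads, and 2 with the coding-transcript TPM ratio, against 0 as reported. Single members changed sign in the TPM ratio (2, Bub1b and Kif11), the quantification made from reads (4, with Cdk2 and Cenpf added) and the coding-transcript TPM ratio (3, Cdk2, Bub1b and Kif11). With the quantification made from reads the median level was 8.33 TPM for all members, against 9.91, and 15.3 TPM for the G1/S engine, against 18.1; the median over genes of its TPM relative to the other table was 0.908 and 0.856. With 1 library left out, the G1/S median ranged from 15.65 to 18.16 TPM. At 2 TPM 35 members were detected. The median ratio of all genes moved by less than 0.1 under every scaling. No paired analysis was possible because the study has a single group. With 1 library on each side, differences between libraries cannot be told apart from preparation or depth.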
